A study of Mus musculus with 16 samples.

Results

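The nuclear genes of oxidative phosphorylation were followed in messenger RNA of mouse mammary gland at day 13 of pregnancy, in Socs2-Δs and wild-type mice. They were chosen by gene name alone. The names start with Nduf and a letter of a, b, c, s or v, with Sdh, with Uqcr, with Cox4 to Cox8 or with Atp5, or read Cyc1. Such a name was found for 84 of 24187 genes, and 81 of the 84 had a mean of at least 1 FPKM (fragments scaled by gene length and library depth) over the 7 libraries, as did 13392 genes in all. By their known roles, 78 of the 81 are subunits, with 34 in complex I, 4 in complex II, 9 in complex III, 16 in complex IV and 15 in complex V. The other 3, Atp5s, Atp5sl and Cox7a2l, are not counted as subunits and are described apart. The 3 genes below the filter were Ndufs5 and Cox8c, listed at 0 in all libraries, and Cox7b2, listed at 0.158 FPKM in Mut replicate 2 and at 0 elsewhere. The subunits encoded by mitochondrial DNA were not analysed here.

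RNA-seq was made from 3 libraries of Socs2-Δs glands (Mut), a line edited by CRISPR/Cas9, and from 4 libraries of C57BL/6 glands (WT). Both groups carry the strain label C57BL/6 and no other treatment is named. WT mice were bought from Charles River, so that origin and genotype cannot be told apart. The genotype tag of the Mut libraries reads wild type, against their titles and source names, and the titles were followed. The labels do not call the replicates separate animals, so the p-values measure the spread between these libraries, which may be technical. Glands were sequenced whole, and fewer cells of a type and less RNA per cell cannot be told apart in such samples.

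Depth was close in all libraries, with 21376795 to 24569719 reads recovered from the steps of the FPKM values. Socs2 measured 17.1, 13.9 and 16.0 FPKM in Mut replicates 1 to 3, against 25.6, 22.1, 24.8 and 16.1 FPKM in WT replicates 1 to 4. WT replicate 4 lay within the Mut range, and the gene did not pass the test (limma adjusted p = 0.267). WT replicates 3 and 4 stood apart from WT replicates 1 and 2 across the whole table, so the Mut libraries were set against each WT pair. The 8 markers of luminal epithelium were present in every library, with summed levels of 1638 to 2472 FPKM in Mut, 1255 to 1535 FPKM in WT replicates 1 and 2, and 1976 and 803 FPKM in WT replicates 3 and 4.

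Oxidative phosphorylation passes electrons from NADH (complex I) and succinate (complex II) through ubiquinone to complex III, and from there through cytochrome c to complex IV, which reduces oxygen. Complexes I, III and IV pump protons across the inner mitochondrial membrane, and complex V, the ATP synthase, uses their return to make ATP. All complexes except complex II join nuclear subunits with subunits made in the mitochondrion. In the mammary gland, secretory epithelium gains mitochondria on the way to lactation, while adipocytes and muscle bring isoforms of their own.

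Promoter sequence is a feature that the choice by name did not use, and many of these genes are known to share binding motifs for NRF1, GABP (NRF2), YY1 and ERR, transcription factors of nuclear genes for mitochondrial proteins. Windows of 300 bases, from 250 bases before to 50 bases after the RefSeq gene start in build GRCm38.p6, were at hand for 67 of the 81 genes and for 10471 of the genes tested. For each complex the window shown is that of the subunit with the smallest p against WT replicates 3 and 4 among those with a single window and a motif match. Capitals mark matches on either strand to GCATGCGC (NRF1), CCGGAAG (GABP), AAGATGGC (YY1) or TCAAGGTCA (ERR). All 5 genes lie on the minus strand and each window is written from 5′ to 3′ of the gene, for Ndufc1 at chr3:51408906-51409205, Sdhd at chr9:50603800-50604099, Uqcr11 at chr10:80406772-80407071, Cox8a at chr19:7217567-7217866 and Atp5k at chr5:108434350-108434649.
Ndufc1: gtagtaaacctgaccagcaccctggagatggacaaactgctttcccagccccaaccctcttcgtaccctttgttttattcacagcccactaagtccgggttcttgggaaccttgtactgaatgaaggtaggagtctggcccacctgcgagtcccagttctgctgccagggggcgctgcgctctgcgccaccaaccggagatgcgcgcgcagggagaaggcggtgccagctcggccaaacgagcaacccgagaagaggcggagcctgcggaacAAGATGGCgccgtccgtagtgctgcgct
Sdhd: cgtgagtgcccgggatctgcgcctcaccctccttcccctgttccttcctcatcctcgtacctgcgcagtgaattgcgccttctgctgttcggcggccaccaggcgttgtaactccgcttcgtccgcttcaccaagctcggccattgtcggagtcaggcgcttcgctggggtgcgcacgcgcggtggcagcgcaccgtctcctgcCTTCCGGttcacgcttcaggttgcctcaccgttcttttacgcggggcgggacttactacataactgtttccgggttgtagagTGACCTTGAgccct
Uqcr11: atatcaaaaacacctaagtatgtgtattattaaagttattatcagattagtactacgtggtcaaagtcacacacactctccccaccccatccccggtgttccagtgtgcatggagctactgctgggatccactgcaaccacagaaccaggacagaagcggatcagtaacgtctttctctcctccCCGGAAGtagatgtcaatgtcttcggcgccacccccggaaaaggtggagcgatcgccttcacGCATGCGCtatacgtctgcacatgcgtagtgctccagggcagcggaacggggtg
Cox8a: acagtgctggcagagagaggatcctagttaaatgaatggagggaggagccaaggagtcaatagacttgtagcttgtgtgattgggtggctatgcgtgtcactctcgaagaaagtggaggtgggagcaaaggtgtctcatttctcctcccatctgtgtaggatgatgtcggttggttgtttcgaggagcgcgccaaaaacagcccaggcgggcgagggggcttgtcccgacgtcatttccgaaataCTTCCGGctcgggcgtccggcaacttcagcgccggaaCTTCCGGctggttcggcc
Atp5k: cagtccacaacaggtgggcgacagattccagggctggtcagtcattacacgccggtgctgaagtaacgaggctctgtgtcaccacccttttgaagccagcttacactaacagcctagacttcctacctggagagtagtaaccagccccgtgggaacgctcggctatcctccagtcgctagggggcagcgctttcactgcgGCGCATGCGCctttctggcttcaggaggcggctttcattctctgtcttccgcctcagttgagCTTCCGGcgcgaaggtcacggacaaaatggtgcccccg

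Matches were counted per gene, and a gene counted once if any of its windows held the letters. More than 1 window was at hand for 6 of the 67 genes. The NRF1 letters were found in 10 of the 67 genes, or 14.9%, against 5.61% of all genes with a window. The YY1 letters stood in 11 of 67 genes, or 16.4%, against 4.99% of all. Those of GABP stood in 16 of 67, or 23.9%, against 19.3%. At least 1 of these 3 motifs was present in 46.3% of the 67 genes and in 27.1% of all. Most of the YY1 matches lay close to one another. In 9 of the 11 genes a match began 23 to 39 bases after the start, as in Ndufc1, where it began 23 bases after it. The place of YY1 matches in all genes was not counted. Whether this place is particular to the 67 genes was therefore not tested. YY1 matches were found in 7 of 30 genes of complex I and 3 of 14 of complex V. They were found in 0 of 3, 0 of 5 and 0 of 12 genes of complexes II, III and IV. ERR letters occurred in Sdhd and Atp5g3, or 2.99% of the 67 genes against 0.296% of all. A core of the STAT5 motif, TTCNNNGAA, was found in 5 of 67 genes, or 7.46%, close to the 8.27% of all genes with a window. These matches are descriptions of letters in a short window and were not tested as binding sites.

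The subunits were among the abundant transcripts of the gland. Mean levels over the 7 libraries ran from 3.05 FPKM (Cox6a2) to 684 FPKM (Cox4i1), with a median of 153 FPKM, and 70 of 78 subunits had a mean of at least 50 FPKM. Median mean levels, per length of gene, were 113 FPKM in complex I, 128 in complex II, 215 in complex III, 262 in complex IV and 301 in complex V. Summed over the 78 subunits, the level was 11435, 12084 and 16508 FPKM in Mut replicates 1 to 3, against 10223 and 14013 FPKM in WT replicates 1 and 2 and 26980 and 23079 FPKM in WT replicates 3 and 4. The Mut sums overlapped those of WT replicates 1 and 2 and lay below both others. The ratio of the means was 1.101 for Mut over WT replicates 1 and 2 and 0.533 for Mut over WT replicates 3 and 4. The FPKM of all genes summed to unlike totals, from 421374 in WT replicate 1 to 771273 in WT replicate 3. As a share of these totals, the subunits took 2.35, 2.19 and 2.67% in Mut replicates 1 to 3. They took 2.43 and 2.84% in WT replicates 1 and 2 and 3.50 and 3.63% in WT replicates 3 and 4. As a share of reads, the subunits took 1.08, 1.07 and 1.30% in Mut, against 1.05 and 1.31% in WT replicates 1 and 2 and 1.827 and 1.696% in WT replicates 3 and 4.

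The genes moved together from library to library, within genotypes as well as between them. Mut replicate 3 was above both other Mut libraries for 76 of 81 genes, against 42.7% of all genes tested, with a median log2 difference of 0.45. WT replicate 2 was above WT replicate 1 for 80 of 81 genes, against 55.9% of all, again with a median of 0.45. WT replicates 3 and 4 were both above the 5 other libraries for 69 of 81, against 25.1% of all genes. WT replicate 1 was the lowest of the 7 libraries for 62 of 81 genes, against 14.7% of all. Other short and abundant genes moved likewise. Under 600 bases, the median of Mut replicate 3 minus Mut replicates 1 and 2 was 0.58 for 31 of the 81 genes. It was 0.56 for 119 other genes of at least 50 FPKM. These medians were 0.50 and 0.39 for WT replicate 2 minus WT replicate 1. For WT replicates 3 and 4 minus WT replicates 1 and 2 they were 1.20 and 1.06.

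**Figure D1:**
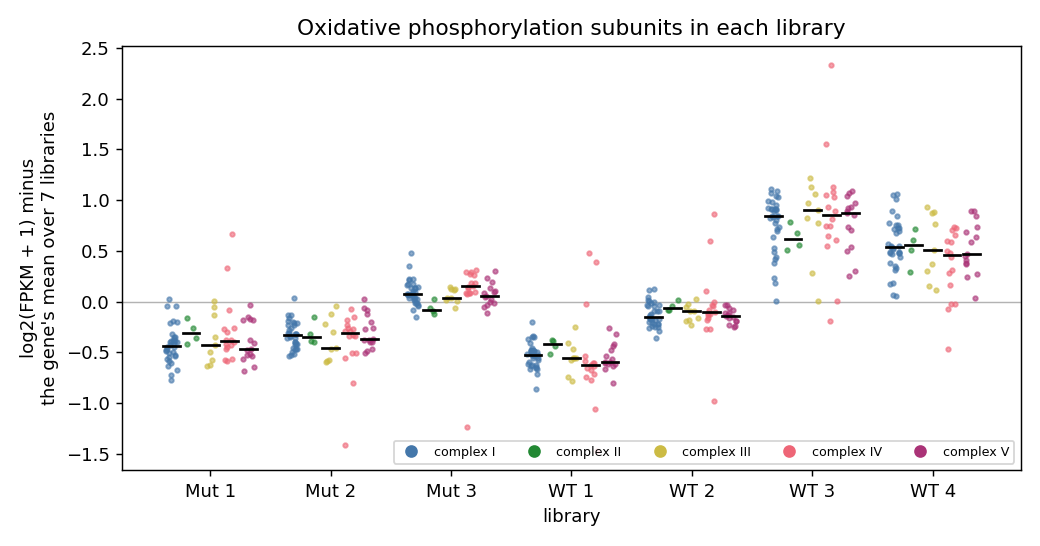
Each point is 1 of 78 subunits in 1 library, plotted as log2(FPKM + 1) minus the mean of that gene over the 7 libraries, with colours for complexes I to V and black bars for the median of a complex. Mut replicates 1 and 2 and WT replicate 1 lie low in every complex, Mut replicate 3 and WT replicate 2 lie near 0, and WT replicates 3 and 4 lie high.

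With all 4 WT libraries as one group, 0 of 81 genes passed in either direction. The test was limma on log2(FPKM + 1), with p adjusted by Benjamini and Hochberg over all 13392 genes and a threshold of 0.05. Of all genes tested, 0.0448% were called higher and 0.0% lower. The median log2 difference of the 81 genes was -0.37, where that of all genes was -0.004, and 75 of 81 differences were below 0. Only Atp5sl had an unadjusted p under 0.05 (1 of 81), against 18.1% of all genes tested.

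In the comparison with WT replicates 1 and 2, 0 of 81 genes rose or fell past the threshold, where 1.26% of all genes were called higher and 0.68% lower. A single gene of the 81, Cox6b2, had an unadjusted p under 0.05, against 20.1% of all genes tested. Differences were above 0 for 67 of 81 genes, with a median of 0.11 on the log2 scale, against 0.03 for all genes. Levels of 3 genes, Ndufv3, Atp5o and Atp5sl, were higher in all 3 Mut libraries without overlap, and Cox6b2 was lower. Of all genes tested, 21.8% were higher without overlap and 18.1% lower. The sign of the median rested on single libraries, being -0.03 without Mut replicate 3 and -0.10 without WT replicate 1. It was 0.30 without WT replicate 2.

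The picture was different against WT replicates 3 and 4, where 46 of the 81 genes fell and 1, Atp5sl, rose. Of all genes tested, 15.7% were called lower and 17.6% higher. The median log2 difference of the 81 genes was -0.91, where that of all genes was -0.03. Levels of 70 of 81 genes were lower in every Mut library than in either WT library, against 30.5% of all genes, and 1 was higher, against 31.1%. The count of falls was 3 without Mut replicate 1, 4 without Mut replicate 2 and 18 without WT replicate 3, while it was 52 without Mut replicate 3 and 47 without WT replicate 4. Ndufa13, Ndufa2 and Ndufb4 were called lower, and Atp5sl higher, in each of these 5 repeats; the other 43 calls were lost in at least 1. Of all 13392 genes tested, 1735 were called in either direction without Mut replicate 1, 2020 without Mut replicate 2 and 2897 without Mut replicate 3. Both comparisons with a WT pair use the same 3 Mut libraries and are given side by side for that reason.

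**Figure D2:**
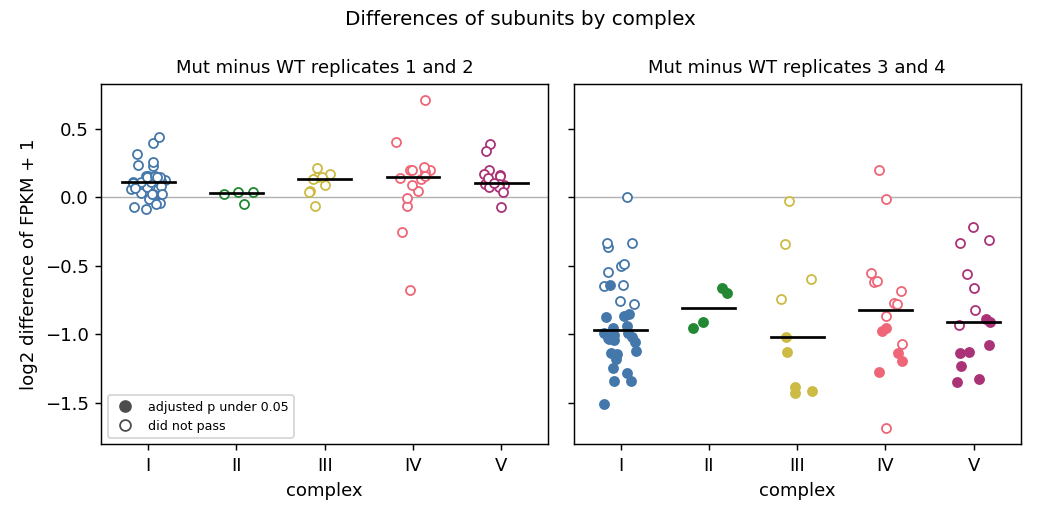
Log2 differences in FPKM + 1 of the 78 subunits by complex, Mut minus WT replicates 1 and 2 on the left and Mut minus WT replicates 3 and 4 on the right. Filled points passed an adjusted p of 0.05 and bars are medians, which run from 0.03 to 0.15 on the left and from -1.02 to -0.81 on the right.

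Markers of several other tissues were higher in 1 or both of WT replicates 3 and 4 than in the Mut libraries. Those of liver were called lower against WT replicates 3 and 4 for 7 of 8 genes, with summed levels of 43.0 to 193 FPKM in Mut, 248 and 341 FPKM in WT replicates 1 and 2, and 506 and 2096 FPKM in WT replicates 3 and 4. The liver gene not called, Cyp2e1, held most of the sum outside WT replicates 3 and 4. It measured 35.8 to 187 FPKM in Mut, 238 and 332 FPKM in WT replicates 1 and 2 and 298 and 79.3 FPKM in WT replicates 3 and 4. Markers of salivary gland were lower for 7 of 7 tested of 9 listed (Klk1b26 was at 0 throughout), with sums of 29.2 to 37.2 FPKM in Mut, 84.5 and 65.1 FPKM in WT replicates 1 and 2, and 467 and 257 FPKM in WT replicates 3 and 4. Amy1 alone measured 28.2 to 36.3 FPKM in Mut, 82.0 and 64.6 FPKM in WT replicates 1 and 2 and 103 and 152 FPKM in WT replicates 3 and 4. Every other salivary gland gene tested stayed below 1 FPKM in each library outside WT replicates 3 and 4. The same held for the liver genes Ahsg, Apoa1, Fgb and Ttr. Such genes passed the filter only through WT replicates 3 and 4, so the filter itself favoured their calls as lower. Of 9 skeletal muscle markers 0 passed (3 at an unadjusted p under 0.05), and their sum was 41.0 to 160 FPKM in Mut, 234 and 40.3 FPKM in WT replicates 1 and 2, and 909 and 175 FPKM in WT replicates 3 and 4. The erythroid gene Alas2, the only 1 of 6 listed that was tested (Hbb-b2 was at 0 throughout), was lower, with 9.26 to 9.69 FPKM in Mut, 26.5 and 8.98 FPKM in WT replicates 1 and 2 and 200.3 and 35.6 FPKM in WT replicates 3 and 4. Macrophage markers were lower for 5 of 6, white adipocyte markers for 4 of 8 and fibroblast markers for 3 of 7. Of all genes tested, 15.7% were called lower and 17.6% higher against this pair. Of the 7 fibroblast genes 6 had differences below 0. Col1a1 went the other way, by 0.68, and did not pass. It measured 434, 295 and 322 FPKM in Mut and 162 and 288 FPKM in WT replicates 3 and 4. White adipocyte sums were 1330 to 2828 FPKM in Mut, 4715 and 5955 FPKM in WT replicates 1 and 2, and 5944 and 8635 FPKM in WT replicates 3 and 4. Of 7 milk protein genes 3 were higher, with sums of 80400 to 107097 FPKM in Mut, 10942 and 16926 FPKM in WT replicates 1 and 2, and 45674 and 3994 FPKM in WT replicates 3 and 4. When set against WT replicates 1 and 2, 4 of the 7 milk genes were higher, where 1.26% of all genes were. Lower were 2 of the 8 white adipocyte genes and 1 of the 7 salivary gland genes, where 0.68% of all genes were. The part of these cells in the levels of the subunits was not tested.

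Complex I, which oxidises NADH, is built of a catalytic core and a shell of accessory subunits. Its summed level was 2859, 3079 and 4207 FPKM in Mut replicates 1 to 3, against 2646 and 3550 FPKM in WT replicates 1 and 2 and 6851 and 5994 FPKM in WT replicates 3 and 4. Of its 34 genes, 0 passed against WT replicates 1 and 2 (0 also at an unadjusted p under 0.05), with a median log2 difference of 0.11. Set against WT replicates 3 and 4, 23 of 34 fell and the median was -0.97. The count was 3 without Mut replicate 1, 3 without Mut replicate 2 and 11 without WT replicate 3. Accessory subunits made up 22 of the 23 falls, of 27 measured, with a median of -1.01. Of the 7 core subunits encoded in the nucleus 1 fell, Ndufv2, and their median was -0.48. The difference between core and accessory subunits was not tested.

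The accessory subunit Ndufa2 (Entrez 17991), which has a thioredoxin-like fold, had the lowest difference of the complex against WT replicates 3 and 4. It measured 97.5, 114 and 165 FPKM in Mut replicates 1 to 3, against 108 and 147 FPKM in WT replicates 1 and 2 and 352 and 349 FPKM in WT replicates 3 and 4. Every Mut library was below WT replicates 3 and 4, and the Mut range spanned WT replicates 1 and 2. The log2 difference was -1.51 (SE 0.26, adjusted p = 0.0107) against WT replicates 3 and 4 and -0.04 (SE 0.26, adjusted p = 0.960) against WT replicates 1 and 2. Ndufa13 (Entrez 67184), also known as GRIM-19, had the smallest p of the 81 genes. It measured 52.8, 59.3 and 70.6 FPKM in Mut, against 51.7 and 67.9 FPKM in WT replicates 1 and 2 and 162 and 147 FPKM in WT replicates 3 and 4. Its log2 difference from WT replicates 3 and 4 was -1.34 (SE 0.19, adjusted p = 0.00614), and that from WT replicates 1 and 2 was 0.03 (SE 0.18, adjusted p = 0.957). Ndufb4 in the membrane arm was close to it, at -1.34 (SE 0.22, adjusted p = 0.00918).

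Ndufb9, a membrane arm subunit, was the most abundant of the complex. It measured 198, 214 and 275 FPKM in Mut replicates 1 to 3, against 164 and 226 FPKM in WT replicates 1 and 2 and 491 and 386 FPKM in WT replicates 3 and 4, a log2 difference of -0.94 (SE 0.24, adjusted p = 0.0320) from the last pair. Its fall was lost without Mut replicate 1, Mut replicate 2 or WT replicate 3. Among other accessory subunits, Ndufa11, Ndufb3, Ndufb8 and Ndufc1 had log2 differences of -1.04, -1.28, -1.18 and -1.12 from WT replicates 3 and 4, all of which passed and were lost without Mut replicate 1 or Mut replicate 2. The call for Ndufb3 was also lost without WT replicate 4. Ndufb3 was also the lowest of the complex against WT replicates 1 and 2, at -0.08. Ndufc2 was the highest there, with a difference of 0.44 (SE 0.29, adjusted p = 0.468), and it measured 131, 158 and 243 FPKM in Mut, 109 and 146 FPKM in WT replicates 1 and 2 and 326 and 182 FPKM in WT replicates 3 and 4. The groups overlapped.

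Of the complex I genes, the accessory subunit Ndufa10 differed least from WT replicates 3 and 4, at 85.2, 85.9 and 86.5 FPKM in Mut, 72.6 and 86.8 FPKM in WT replicates 1 and 2 and 84.5 and 87.3 FPKM in WT replicates 3 and 4. All libraries but WT replicate 1 lay within 3 FPKM of one another. Its log2 difference was -0.0004 (SE 0.15) from WT replicates 3 and 4 and 0.11 (SE 0.12) from WT replicates 1 and 2, and neither passed. Ndufv1, the core subunit that binds NADH and FMN, had differences of -0.33 (SE 0.16, adjusted p = 0.161) and 0.16 (SE 0.15, adjusted p = 0.622) in the same order, and Ndufs7, an iron-sulfur core subunit, of -0.33 (SE 0.26) and 0.03 (SE 0.27).

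Complex II, succinate dehydrogenase, is also an enzyme of the tricarboxylic acid cycle and has nuclear subunits only. Sdha carries the flavin, Sdhb the iron-sulfur clusters, and Sdhc and Sdhd anchor them in the membrane. All 4 fell against WT replicates 3 and 4, and 0 of 4 passed against WT replicates 1 and 2 (0 also at an unadjusted p under 0.05). Sdhd, lowest against WT replicates 3 and 4 and highest against WT replicates 1 and 2, measured 87.7, 89.9 and 119.5 FPKM in Mut, against 81.7 and 111 FPKM in WT replicates 1 and 2 and 203 and 180 FPKM in WT replicates 3 and 4. Its log2 differences were -0.96 (SE 0.21, adjusted p = 0.0199) and 0.04 (SE 0.21, adjusted p = 0.949). Sdhc, the most abundant, measured 101, 97.9 and 123 FPKM in Mut, against 99.4 and 122 FPKM in WT replicates 1 and 2 and 191 and 213 FPKM in WT replicates 3 and 4, with differences of -0.91 (SE 0.19, adjusted p = 0.0173) and -0.05 (SE 0.17). Sdhb had the smallest fall, -0.66 (SE 0.19, adjusted p = 0.0425). None of the 4 falls was called without Mut replicate 1 or without Mut replicate 2, and that of Sdhb was also lost without Mut replicate 3 or WT replicate 3.

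Complex III, the cytochrome bc1 complex, passes electrons from ubiquinol to cytochrome c. Of its 9 genes, 5 fell against WT replicates 3 and 4, with a median log2 difference of -1.02, and all 5 are small subunits: Uqcrh, Uqcrb, Uqcrq, Uqcr10 and Uqcr11. Of the catalytic and core subunits, Uqcrc1 was at -0.02 (SE 0.17), the cytochrome c1 gene Cyc1 at -0.34 (SE 0.17), Uqcrc2 at -0.60 (SE 0.25) and the Rieske protein gene Uqcrfs1 at -0.75 (SE 0.23), and none passed. The comparison with WT replicates 1 and 2 called 0 of 9 (0 also at an unadjusted p under 0.05), with a median of 0.13.

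Uqcr10 had the lowest value of the complex in both comparisons. It measured 123, 127 and 183 FPKM in Mut, against 129 and 171 FPKM in WT replicates 1 and 2 and 420.1 and 349.5 FPKM in WT replicates 3 and 4. The Mut libraries lay around WT replicates 1 and 2 and below the other pair, with log2 differences of -0.07 (SE 0.23) and -1.43 (SE 0.25, adjusted p = 0.0107). Uqcrc1, which had the highest difference against WT replicates 3 and 4, measured 127, 123 and 140 FPKM in Mut, against 106 and 129 FPKM in WT replicates 1 and 2 and 127 and 137 FPKM in WT replicates 3 and 4. The 3 groups overlapped. The hinge protein gene Uqcrh was the most abundant, at 256, 264 and 426 FPKM in Mut, against 229 and 336 FPKM in WT replicates 1 and 2 and 916 and 726 FPKM in WT replicates 3 and 4. Uqcrc2 was highest against WT replicates 1 and 2, at 0.22 (SE 0.15), which did not pass. The count of 5 falls was 0 without Mut replicate 1, 1 (Uqcr10) without Mut replicate 2 and 3 without WT replicate 3.

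Complex IV, cytochrome c oxidase, has nuclear subunits around a core made in the mitochondrion, and several of them exist as a widespread and a tissue-specific isoform. Ndufa4, named for complex I, is counted here because it is a subunit of this complex. Of its 16 genes, 5 fell against WT replicates 3 and 4 (Cox6c, Cox7a2, Cox7c, Cox8a and Ndufa4), with a median log2 difference of -0.82, and 10 had an unadjusted p under 0.05, against 46.6% of all genes tested. The count was 0 without Mut replicate 1, without Mut replicate 2 or without WT replicate 3. In the other comparison, with WT replicates 1 and 2, 0 of 16 passed (1 at an unadjusted p under 0.05), and the median was 0.15. With Ndufa4 moved to complex I, 4 of 15 genes of complex IV and 24 of 35 of complex I fell.

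Cox4i1, the widespread isoform of subunit 4 and the most abundant subunit of all, measured 488, 548 and 795 FPKM in Mut, against 382 and 533 FPKM in WT replicates 1 and 2 and 1075 and 969.6 FPKM in WT replicates 3 and 4. Its log2 differences were -0.77 (SE 0.30, adjusted p = 0.0973) from WT replicates 3 and 4 and 0.40 (SE 0.29, adjusted p = 0.502) from WT replicates 1 and 2. Its partner Cox4i2, known from lung, was at 5.34, 5.39 and 6.11 FPKM in Mut, 5.61 and 6.18 FPKM in WT replicates 1 and 2 and 5.75 and 5.60 FPKM in WT replicates 3 and 4. It had the smallest spread over the 7 libraries of all 81 genes, with an SD of 0.07 on the log2 scale.

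Of the isoforms of muscle and brown fat, Cox6a2 and Cox8b had the widest spread of the 81 genes, with SDs of 1.17 and 1.11 on the log2 scale. Cox6a2, of heart and skeletal muscle, measured 1.36, 1.57 and 0.211 FPKM in Mut, against 2.74 and 0.442 FPKM in WT replicates 1 and 2 and 13.3 and 1.71 FPKM in WT replicates 3 and 4. The Mut libraries lay below WT replicates 3 and 4, though Mut replicate 2 was close to WT replicate 4. WT replicate 3 stood far above all others, and the summed skeletal muscle markers were highest there too. The log2 difference from WT replicates 3 and 4 was -1.68 (SE 0.72, adjusted p = 0.120), and it was -0.26 (SE 0.50) from WT replicates 1 and 2. It made up at most 1.59% of the Cox6a pair, in WT replicate 3.

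Cox8b, an isoform of heart, muscle and brown fat in rodents, measured 42.58, 11.97 and 37.49 FPKM in Mut, against 11.5 and 62.0 FPKM in WT replicates 1 and 2 and 100.1 and 33.1 FPKM in WT replicates 3 and 4. Cox7a1, of heart, muscle and brown fat, measured 22.2, 7.41 and 16.6 FPKM in Mut, against 6.00 and 11.1 FPKM in WT replicates 1 and 2 and 28.9 and 15.4 FPKM in WT replicates 3 and 4. Both overlapped in every comparison. Their differences from WT replicates 1 and 2 were -0.01 (SE 0.82) for Cox8b and 0.71 (SE 0.47) for Cox7a1, which was the highest of the 81 genes, and neither passed (adjusted p = 0.998 and 0.462). The summed brown adipocyte markers were 52.1, 8.90 and 23.1 FPKM in Mut, 4.93 and 19.0 FPKM in WT replicates 1 and 2 and 18.7 and 14.4 FPKM in WT replicates 3 and 4. Cidea alone measured 21.4, 5.21 and 15.4 FPKM in Mut. It measured 1.79 and 10.7 FPKM in WT replicates 1 and 2 and 12.1 and 6.15 FPKM in WT replicates 3 and 4. Ucp1 measured 24.4 FPKM in Mut replicate 1 and 0.358 to 4.28 FPKM in the other libraries. Of the 8 brown adipocyte markers 3 were tested and 0 passed in either comparison (0 also at an unadjusted p under 0.05). Their part in the levels of Cox7a1 and Cox8b was not tested.

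**Figure D3:**
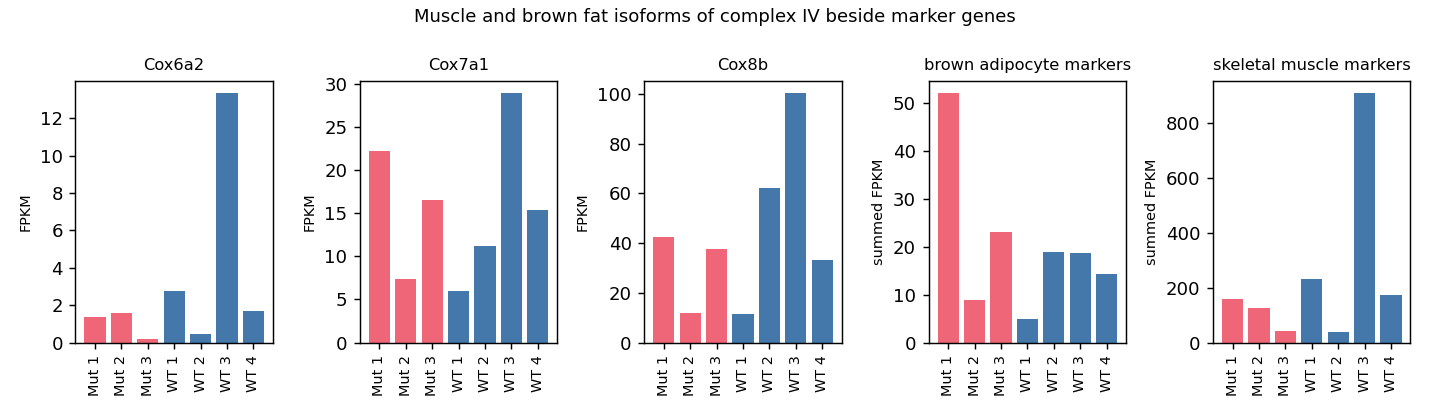
Bars give the FPKM of Cox6a2, Cox7a1 and Cox8b and the summed FPKM of brown adipocyte and skeletal muscle markers in each library, Mut in red and WT in blue, with axes from 0. Cox6a2 reaches 13.3 FPKM in WT replicate 3, where the muscle markers sum to 909 FPKM, and the brown adipocyte markers are highest in Mut replicate 1, at 52.1 FPKM.

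Cox6b2 is an isoform best known from testis. It measured 3.25, 3.28 and 4.95 FPKM in Mut, against 6.29 and 6.95 FPKM in WT replicates 1 and 2 and 3.58 and 2.78 FPKM in WT replicates 3 and 4. All Mut libraries lay below WT replicates 1 and 2, and they overlapped WT replicates 3 and 4. The log2 difference from WT replicates 1 and 2 was -0.68 (SE 0.18), the lowest of the 81 genes, and did not pass (adjusted p = 0.123). It was 0.20 (SE 0.22) from WT replicates 3 and 4. Cox6b2 made up 0.987, 0.909 and 0.961% of the Cox6b pair in Mut, 2.09 and 1.60% in WT replicates 1 and 2 and 0.447 and 0.435% in WT replicates 3 and 4.

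The widespread isoforms Cox6a1 and Cox6b1 had log2 differences of -0.61 (SE 0.29) and -0.87 (SE 0.29) from WT replicates 3 and 4, and neither passed. Cox7a2 fell by 0.95 (SE 0.23, adjusted p = 0.0270) and Cox8a fell by 0.98 (SE 0.26, adjusted p = 0.0359) on the log2 scale. Cox8a measured 415, 449 and 596 FPKM in Mut, against 367 and 507 FPKM in WT replicates 1 and 2 and 950.4 and 941 FPKM in WT replicates 3 and 4.

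Complex V, the ATP synthase, joins a catalytic F1 head, a stator and a membrane ring of c subunits. Of its 15 genes, 8 fell against WT replicates 3 and 4, with a median log2 difference of -0.91, and the count was 0 without Mut replicate 1, 0 without Mut replicate 2 and 1 without WT replicate 3. They were the F1 subunits γ (Atp5c1) and ε (Atp5e), the stator genes Atp5f1, Atp5h and Atp5j, and the small membrane subunits Atp5j2, Atp5k and Atp5l. The catalytic β subunit gene Atp5b was at -0.33 (SE 0.22), the α gene Atp5a1 at -0.56 (SE 0.22) and the δ gene Atp5d at -0.32 (SE 0.19), and none passed. None of the 15 (0 also at an unadjusted p under 0.05) passed against WT replicates 1 and 2, and the median was 0.10.

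Atp5l, subunit g of the membrane part, was lowest against WT replicates 3 and 4. It measured 221, 258 and 382 FPKM in Mut, against 205 and 329.6 FPKM in WT replicates 1 and 2 and 760.4 and 665 FPKM in WT replicates 3 and 4, with a log2 difference of -1.34 (SE 0.30, adjusted p = 0.0202). Atp5k, subunit e, measured 193, 196 and 253 FPKM in Mut, against 185 and 268 FPKM in WT replicates 1 and 2 and 505 and 494 FPKM in WT replicates 3 and 4, a difference of -1.23 (SE 0.22, adjusted p = 0.0113). For both genes the Mut libraries were below WT replicates 3 and 4. They lay within the range of WT replicates 1 and 2 except for Atp5l in Mut replicate 3, which was above it.

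The c subunit is encoded by 3 genes, Atp5g1, Atp5g2 and Atp5g3, whose mature proteins are the same; how reads shared by such copies were counted is not given in the sources used here. Atp5g3 was the most abundant of the complex, at 420.3, 479.7 and 731 FPKM in Mut, against 399.7 and 608 FPKM in WT replicates 1 and 2 and 1018 and 1003 FPKM in WT replicates 3 and 4. Atp5g1 measured 114, 132 and 159.8 FPKM in Mut, against 88.8 and 118 FPKM in WT replicates 1 and 2 and 183 and 132 FPKM in WT replicates 3 and 4. It was the highest of the complex in both comparisons, at 0.39 (SE 0.20, adjusted p = 0.359) and -0.22 (SE 0.24, adjusted p = 0.511), and passed in neither. Atp5g1 made up 13.9, 13.9 and 11.8% of the summed c subunit FPKM in Mut, against 11.8 and 10.7% in WT replicates 1 and 2 and 9.39 and 7.97% in WT replicates 3 and 4. No Mut share was below any WT share, although the lowest Mut and highest WT shares were nearly equal. Atp5g2 and Atp5g3 differed from WT replicates 3 and 4 by -0.82 (SE 0.30) and -0.93 (SE 0.32), and neither passed.

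Of the 3 genes that are no subunits, Atp5sl (Entrez 66349, now Dmac2), which helps assemble the distal membrane arm of complex I, was the only 1 of the 81 that rose. It measured 12.1, 15.3 and 13.6 FPKM in Mut, against 10.8 and 11.8 FPKM in WT replicates 1 and 2 and 7.05 and 6.46 FPKM in WT replicates 3 and 4. All 3 Mut libraries were above all 4 WT libraries. The log2 difference was 0.91 (SE 0.16, adjusted p = 0.0101) from WT replicates 3 and 4, 0.25 (SE 0.13, adjusted p = 0.351) from WT replicates 1 and 2 and 0.58 (SE 0.23, adjusted p = 0.249) from all WT. Atp5s (now Dmac2l), which was at 4.87 to 6.89 FPKM in all libraries, differed by 0.03 (SE 0.20) and -0.01 (SE 0.17) from WT replicates 3 and 4 and WT replicates 1 and 2. Cox7a2l, a factor of respiratory supercomplexes, measured 164, 188 and 227 FPKM in Mut, against 158 and 181 FPKM in WT replicates 1 and 2 and 376 and 305 FPKM in WT replicates 3 and 4. It fell against the last pair, by 0.82 (SE 0.23, adjusted p = 0.0402), a call that was lost without Mut replicate 1, Mut replicate 2 or WT replicate 3.

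The median difference of the 81 genes from WT replicates 3 and 4 was further below 0 in shorter classes of gene length, and so was that of other genes averaging 50 FPKM or more. Of the 81 genes, 53 were shorter than 1000 bases by the length implied in their FPKM. The 31 genes under 600 bases had a median log2 difference of -1.13, and 26 of them fell. Of 119 other genes of that length with a mean of at least 50 FPKM, 50 (42.0%) fell, and their median was -0.96. Without the limit of 50 FPKM, 113 of 436 other genes of that length (25.9%) fell. From 600 to under 1000 bases the medians were -0.78 for 22 genes and -0.77 for 264 others of at least 50 FPKM. From 1000 to under 2000 bases they were -0.75 for 23 genes and -0.50 for 539 others. At 2000 bases and over they were -0.56 for 5 genes and -0.29 for 521 others. Without the limit of 50 FPKM the other genes had medians of -0.20, -0.60, -0.25 and 0.08 in the 4 classes, from short to long, so that the shortest class was not the lowest there. When a smooth trend on length was taken out of each library, 23 of the 81 genes fell, 3 rose and the median was -0.35, and in complex IV 0 of 16 fell. Of all 13392 genes tested, 4266 were called in either direction under that setting, with a median of -0.03.

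**Figure D4:**
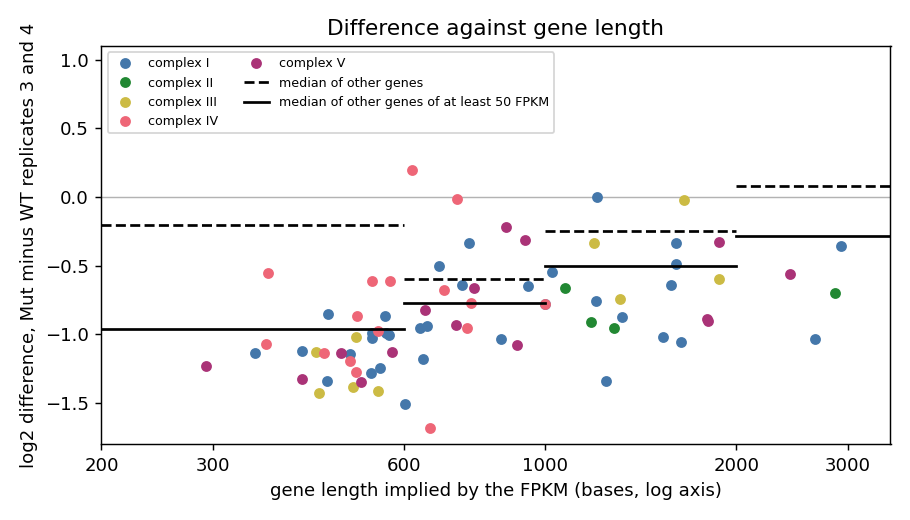
Log2 difference in FPKM + 1, Mut minus WT replicates 3 and 4, of the 78 subunits against gene length in bases (log axis), coloured by complex. Dashed and solid lines are medians of all other genes and of other genes of at least 50 FPKM in 4 length classes; subunits under 600 bases lie mostly near or below the solid line at -0.96.

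Other genes of the mitochondrion had medians nearer 0 against WT replicates 3 and 4 than the subunits, a difference that was not tested. Against WT replicates 1 and 2, 0 genes of these lists passed, while an unadjusted p under 0.05 was found for 3 mitochondrial ribosomal protein genes, 2 of the tricarboxylic acid cycle, 1 complex I assembly factor and 1 electron carrier or feeder. The counts that follow stand beside 15.7% of all genes called lower. Assembly factors build the complexes without remaining in them. Of 13 for complex I, 5 fell, of 8 for complexes II and III, 2 fell, of 19 for complex IV, 7 fell, and of 4 genes of ATP synthase assembly and inhibition, 0 fell (1 at an unadjusted p under 0.05). The medians were -0.36, -0.42, -0.21 and -0.42. Of 74 mitochondrial ribosomal protein genes 25 fell and 1 rose, with a median of -0.54. Of 16 genes of the tricarboxylic acid cycle 4 fell, with a median of -0.28, of 16 carriers and import genes 5 fell, with a median of -0.59, and of 13 electron carriers and feeders 4 fell and 1 rose. Cytosolic ribosomal protein genes, which are short and abundant as well, had a median of -0.87, and 72 of 74 differences were below 0. Levels of 61 of 74 were lower in every Mut library than in either WT library, as for 70 of the 81 genes and 30.5% of all genes. Only 4 of 74 fell past the threshold, a share below that of all genes, while 39 had an unadjusted p under 0.05.

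Of 11 regulators of mitochondrial gene expression, 3 rose and 0 fell against WT replicates 3 and 4, where 17.6% of all genes rose. An unadjusted p under 0.05 was found for 5 of the 11, a share close to the 46.6% of all genes. Those that rose were the coactivators Pprc1 (1.696, adjusted p = 0.00239) and Ppargc1b (0.87, adjusted p = 0.0464) and the mitochondrial RNA polymerase gene Polrmt (1.28, adjusted p = 0.00731). Pprc1 measured 13.8, 12.8 and 13.8 FPKM in Mut, against 10.2 and 12.1 FPKM in WT replicates 1 and 2 and 3.08 and 3.88 FPKM in WT replicates 3 and 4. The Mut libraries and WT replicates 1 and 2 were alike in being far above the last pair. Nrf1, Gabpa and Yy1, whose motifs are described above, differed from WT replicates 3 and 4 by 0.09, -0.16 and -0.18, and none passed. Esrra, a gene for an ERR factor, differed by 0.56 and did not pass either (adjusted p = 0.138). It measured 24.0, 26.0 and 39.5 FPKM in Mut, against 18.1 and 23.3 FPKM in WT replicates 1 and 2 and 22.2 and 17.0 FPKM in WT replicates 3 and 4.

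The extremes of these lists against WT replicates 1 and 2 stayed short of the threshold. The highest and lowest were Acad9 (0.49) and Ndufaf2 (-0.42) for complex I assembly, Sdhaf1 (0.57) and Uqcc2 (-0.37) for complexes II and III, Cox18 (0.35) and Cox19 (-0.02) for complex IV, and Tmem70 (0.17) and Atpaf2 (-0.14) for ATP synthase. They were Dhodh (0.32) and Etfb (-0.27) among electron carriers and feeders, Esrra (0.48) and Nrf1 (-0.07) among regulators, and Pdha1 (0.65) and Idh3a (-0.28) in the tricarboxylic acid cycle. They were Slc25a5 (0.23) and Timm50 (-0.26) among carriers, Mrpl38 (0.56) and Mrpl48 (-0.33) among mitochondrial and Rpl29 (0.43) and Rpl13a (-0.04) among cytosolic ribosomal proteins. The medians were between -0.06 and 0.23 on the log2 scale.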

How the data were processed

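Messenger RNA was sequenced in 7 of the 16 samples of the series; the other 9, of ChIP-seq and DNase-seq, were not used here. Per the labels' protocols, poly(A) RNA and a TruSeq kit were used. Build mm9 and the tools STAR, Bowtie2, CASAVA and DESeq2 are named, per the submitters' processing notes, with no version or role. For the annotation, the use of strand and the treatment of reads that match several places, no statement is given in the sources used here. Many subunit genes have processed pseudogenes, so their counts are uncertain to that extent.

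The authors deposited FPKM per gene, and 0 columns of values were left without a sample. The steps between values gave whole reads for 21044 of 21044 genes above 0 (within 0.02 of a read), and the gene length behind them, which was whole for 98.7% of short genes (within 0.05 of a base). Depth of 21376795 to 24569719 reads gave at least 3 reads per library for each of the 81 genes, with medians of 2028 to 4468.

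Differences are Mut minus WT on log2(FPKM + 1), a scale on which changes of low genes come out too small. They were tested with limma 3.58.1 in R 4.3.3 (empirical Bayes with trend), over the 13392 genes that averaged 1 FPKM or more, each comparison with a WT pair on its own 5 libraries, with p adjusted by Benjamini and Hochberg. The fit was tested on simulated data.

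The genes and lists were chosen with earlier results of these data known. Named were, per complex, the most abundant gene and the highest and lowest difference from each WT pair, the 10 smallest p, the isoform sets, and the extremes of each other list against WT replicates 1 and 2; others were named after their values were seen. Lists are described by counts and medians, with no test. Promoter windows came from RefSeq (GRCm38.p6) and were matched by Entrez ID and symbol. Alternatives were other pseudocounts (0.1 and 5), filters (none and 5 FPKM), scalings, fits, and leaving out each library.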

Additional observations from a re-analysis of the deposited data

How the results depend on the processing

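Against all 4 WT libraries, 0 of 81 genes passed under every alternative run, and the median log2 difference stayed below 0, between -0.62 (without WT replicate 1) and -0.16 (without WT replicate 3) when 1 library was left out. Against WT replicates 1 and 2, 0 passed except for Cox6b2, the 1 gene called lower with the length trend removed, while the median ran from -0.10 to 0.30 with 1 library left out, was -0.16 when libraries were scaled to equal FPKM sums (all genes -0.20), and was -0.06 with voom on recovered reads (all genes -0.14). Against WT replicates 3 and 4, 46 falls became 25 without a filter, 14 with quantile normalization (2 rises, median -0.32) and 23 with the length trend removed (3 rises, median -0.35). They were 3 to 52 with 1 Mut library left out (lowest without Mut replicate 1). Genes called in either direction, of all tested, were 3584 of 21044 without a filter. Of 13392 genes, 4112 were called with quantile normalization, 4266 with the length trend removed and 1735 to 2897 with 1 Mut library left out. The median of the 81 genes was -0.56 with equal FPKM sums, where that of all genes was 0.26, and voom called 43 falls among the 81. The cause of these shifts was not tested. Uqcrc1 reversed to 0.53 with quantile normalization, as did Cox4i2, to 0.59, with the length trend removed. Of 1791 alternative values of named genes, 1557 kept their direction and side of the threshold. Equal sums, the length trend and voom were chosen after seeing the data. Where 1 WT library was left of a pair, it was assumed to vary like the Mut libraries.

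With the replicate block, on shared numbers, 0 of the 81 genes passed. Their median was -0.25 against WT replicates 1 to 3 and -0.03 against WT replicates 1 and 2. Of all genes tested, 0 were called against WT replicates 1 to 3 and 130 against WT replicates 1 and 2. Mut replicate 3 has no partner in the latter fit, and the median there equals that without Mut replicate 3. Same-numbered libraries had correlations of 0.347, 0.055 and 0.191 for numbers 1 to 3, and 0.253 for numbers 1 and 2 alone. Libraries of unlike number were not correlated, so these values cannot show whether a shared number pairs libraries. No block could be fitted against WT replicates 3 and 4, where only number 3 is shared.

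The design limits what can be seen. Each WT pair has 2 libraries, and no label says why WT replicates 3 and 4 differ from the others; what sets them apart was not tested. Depth was not limiting for abundant subunits; Cox6a2, at 0.211 FPKM in Mut replicate 3, rested on 3 reads there.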
